A study of Mus musculus with 9 samples.

Results

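Expression of 4 genes of the p53 pathway, Trp63, Trp73, Mdm2 and Mdm4, was described in mouse osteosarcoma cell lines and in osteoblast-lineage cultures. The genes were taken by their symbols from the probe sets that carry a single gene symbol, and they are 4 of the 19938 genes measured. Each was measured by 1 probe set, on 9 arrays. The values are log2 expression levels, so a difference of 1 is a doubling.

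The arrays fell into 3 groups of 3. The osteosarcoma group held 3 tumour-derived lines, 493H and 716H from females and 494H from a male, with 1 array each. These came from adult C57BL/6 mice of the genotype Osx-Cre p53fl/fl Rbfl/fl, in which the Osx (osterix) promoter drives Cre recombinase in the osteoblast lineage. The labels give the lines as p53-/- Rb-/- and fibroblastic, grown subconfluent and below passage 8. The other groups were cultures of Kusa4b10, a mouse bone marrow stromal line. Undifferentiated cultures of it stand for pre-osteoblasts. Osteoblasts were the same line after 21 days in ascorbate-supplemented medium. No engineered allele is named for either, and by their labels the cultures are independent samples. They are all of 1 line, so p-values measure only the spread between cultures of that line and between the 3 tumour lines. In the comparisons with osteosarcoma lines, tumour state, the deleted alleles, line of origin and culture history cannot be told apart. Between the Kusa4b10 states, differentiation cannot be told apart from medium, growth state and time in culture.

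Trp63 and Trp73 encode p63 and p73, transcription factors of the p53 family that bind the same kind of DNA element as p53. Both genes have alternative starts, which give forms with a full transactivation domain and shorter forms that can oppose them. p63 is best known as a regulator of stratified epithelium and of limb and skin development, and p73 for its role in multiciliated cells and in neural development. Mdm2 encodes a RING ubiquitin ligase that binds p53, blocks its transactivation domain and marks it for degradation. Mdm4 encodes a related RING protein that binds p53 in the same way and forms a heterodimer with MDM2. Mdm2 is itself a target gene of p53, so the pair forms a feedback loop in cells with functional p53. The p53 gene itself is not analysed here.

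The sequences upstream of the transcription starts are shown first, since they place each gene among promoters with and without common core elements. They are the 250 bases before each start in RefSeq's annotation of GRCm38.p6, on the gene's strand, and 3 of the 4 genes had such a window. Windows for Trp73 and Mdm2 are given, Mdm2 because it held the most motif matches and Trp73 because its 2 starts differ. Capitals mark motif matches on either strand.
Trp73 start 1, chr4:154139876-154140125, minus strand: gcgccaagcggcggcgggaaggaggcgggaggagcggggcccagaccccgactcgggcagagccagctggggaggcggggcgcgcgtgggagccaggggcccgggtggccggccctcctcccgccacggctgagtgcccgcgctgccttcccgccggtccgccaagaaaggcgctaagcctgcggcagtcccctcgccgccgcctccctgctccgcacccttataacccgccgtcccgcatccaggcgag
Trp73 start 2, chr4:154097174-154097423, minus strand: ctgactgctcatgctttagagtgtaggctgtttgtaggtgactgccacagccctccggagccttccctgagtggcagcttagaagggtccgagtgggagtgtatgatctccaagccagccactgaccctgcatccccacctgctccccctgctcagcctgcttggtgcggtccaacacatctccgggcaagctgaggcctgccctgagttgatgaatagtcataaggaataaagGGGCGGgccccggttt
Mdm2, chr10:117710759-117711008, minus strand: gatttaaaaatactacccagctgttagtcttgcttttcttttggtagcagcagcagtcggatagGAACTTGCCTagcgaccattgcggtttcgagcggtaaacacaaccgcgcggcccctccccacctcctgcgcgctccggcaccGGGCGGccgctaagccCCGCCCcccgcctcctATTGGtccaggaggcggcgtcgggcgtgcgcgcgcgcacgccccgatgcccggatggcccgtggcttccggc

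The Mdm2 window held 2 GC boxes (GGGCGG, the element bound by Sp1), beginning 104 and 88 bases before the start. It also held a CCAAT box (CCAAT, bound by NF-Y) 72 bases and a match to the p53 family decamer, the unit of a p53 response element, 186 bases before the start, and no match overlapped another. GC boxes occurred in 32.7% of the 32851 windows searched, CCAAT boxes in 33.8% and the decamer in 7.13%. The well-known p53 response element of Mdm2 lies in its first intron, outside this window. The first Trp73 window held none of the motifs searched at 77.2% GC, and the second, at 58.4% GC, held 1 GC box 16 bases before the start. Both Mdm4 windows, at 41.6% and 47.2% GC, held none, where the median over all windows was 52.4% GC. No window of Trp73, Mdm2 or Mdm4 held an E2F site (TTTCCCGC, TTTCGCGC, TTTGCCGC or TTTGGCGC, in 1.86% of windows), a TATA box (TATAAA, 12.4%) or an E box (CACGTG, 6.02%). Forms of the E2F site other than those given were not searched. A match is a description of letters, not of a bound site.

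Marker lists were set against the group labels. The mean log2 level of 12 osteoblast markers was 10.95 to 11.61 in osteoblast arrays, 8.90 to 9.28 in pre-osteoblasts and 9.11 to 9.65 in osteosarcoma lines. Of these, 7 were higher in osteoblasts than in pre-osteoblasts, led by Ibsp (log2 difference 6.97 ± 0.45, SE, limma adjusted p = 4.61e-05), a mineral-binding matrix protein, and 1, Alpl, was higher in osteosarcoma lines than in pre-osteoblasts (2.37 ± 0.72, limma adjusted p = 0.0468). Of all genes, 10.3% were higher in the first of these comparisons and 9.96% in the second. The mean level of 12 adipocyte markers was also highest in the osteoblast arrays, at 10.46 to 11.11 against 8.44 to 8.95 in pre-osteoblasts and 7.55 to 8.02 in osteosarcoma lines. Proliferation genes, 19 in number, averaged 9.004 to 9.92 in osteoblasts, 10.69 to 11.59 in pre-osteoblasts and 11.29 to 11.77 in osteosarcoma lines. Rb1, the deleted gene on the array, read 9.26, 9.67 and 9.85 in lines 493H, 494H and 716H, 9.17 to 9.28 in pre-osteoblasts and 10.63 to 10.65 in osteoblasts. The labels do not say which exons were deleted, nor was it known here which exons the probe set reads, so these values do not check that label. In bulk RNA such as this, fewer cells of a type and less RNA per cell cannot be told apart.

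Across the groups, Trp63 fell with osteoblast culture and was lowest in the tumour lines, Mdm4 was lowest in the tumour lines, Mdm2 was split among the tumour lines, and Trp73 stayed within a narrow band. Calls were made with limma on all genes at a Benjamini-Hochberg adjusted p below 0.05. Between osteoblasts and pre-osteoblasts 1 of the 4 genes was called, lower, where 26.1% of all genes were called (10.3% higher and 15.8% lower). Between osteosarcoma lines and pre-osteoblasts 2 were called, both lower, against 23.5% of all genes (9.96% higher and 13.5% lower). Between osteosarcoma lines and osteoblasts 2 were called, both lower, against 27.4% of all genes (14.7% higher and 12.7% lower). Osteoblast and pre-osteoblast arrays did not overlap for 3 of the genes, 1 higher and 2 lower in osteoblasts, against 44.2% of all genes (19.1% higher and 25.1% lower). Osteosarcoma and pre-osteoblast arrays did not overlap for 2, both lower, against 35.6% (15.4% higher and 20.2% lower). Osteosarcoma and osteoblast arrays did not overlap for 2, both lower, against 38.7% (19.6% higher and 19.1% lower). In the F test over the 3 groups, which called 38.4% of all genes, Trp63 and Mdm4 were called. These shares of the 4 genes are read against that background, and the genes are described singly. Each comparison shares a group with each of the others, so they are not independent.

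**Figure D1:**
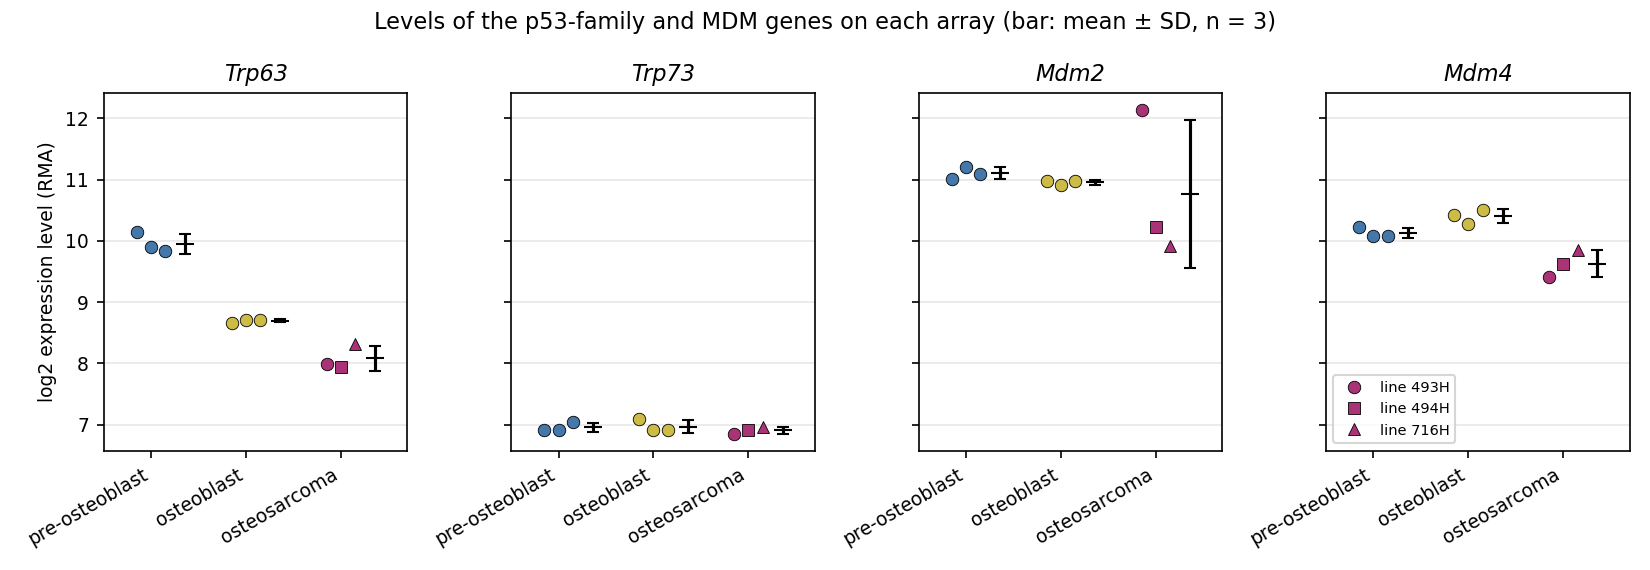
Log2 expression level (RMA) of Trp63, Trp73, Mdm2 and Mdm4 on each of the 9 arrays, by group, with the 3 osteosarcoma lines as separate symbols and bars at the mean ± SD of 3 arrays. Trp63 steps down from pre-osteoblasts at 9.83 to 10.14 to osteosarcoma lines at 7.95 to 8.32, Trp73 lies between 6.84 and 7.09 throughout, Mdm2 in line 493H stands at 12.14 while the other lines lie below every Kusa4b10 array, and Mdm4 is lowest in the 3 lines.

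Trp63 showed the widest separation of the groups. Its log2 level was 10.14, 9.90 and 9.83 in pre-osteoblast replicates 1, 2 and 3. In osteoblasts it was 8.67, 8.71 and 8.71, and in lines 493H, 494H and 716H it was 7.99, 7.95 and 8.32. Every osteoblast array lay below every pre-osteoblast array, and every tumour line below every osteoblast array. The means were 9.96 ± 0.16 in pre-osteoblasts, 8.70 ± 0.02 in osteoblasts and 8.09 ± 0.20 in osteosarcoma lines (SD, n = 3 each). Trp63 fell by 1.26 ± 0.11 (SE) between pre-osteoblasts and osteoblasts, a 2.40-fold difference (95% interval -1.52 to -1.001, limma adjusted p = 0.000179). It was 3.66-fold lower in osteosarcoma lines than in pre-osteoblasts (log2 difference -1.87, 95% interval -2.13 to -1.61, limma adjusted p = 4.85e-05). The smallest step, between osteoblasts and osteosarcoma lines, was 1.53-fold (log2 difference -0.61, 95% interval -0.87 to -0.35, limma adjusted p = 0.0048). Its order was therefore osteosarcoma below osteoblast below pre-osteoblast, and each neighbouring pair in that order differed beyond its spread. The range of Trp63 over the 9 arrays, 2.19, was at the 94.6th percentile among all genes, and its range over the lines, 0.37, at the 71.9th. RefSeq holds 8 Trp63 messenger RNAs, and a single probe set does not separate their starts.

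Trp73 did not separate the groups. The pre-osteoblast arrays read 6.92, 6.91 and 7.05 and the osteoblast arrays 7.09, 6.91 and 6.91. Lines 493H, 494H and 716H read 6.84, 6.92 and 6.96. The 3 groups overlapped, and the whole range over 9 arrays was 0.25, at the 16.2 percentile among all genes. The means were 6.96 ± 0.08, 6.97 ± 0.10 and 6.91 ± 0.06 (SD, n = 3 each). The difference of osteoblasts from pre-osteoblasts was 0.01 (95% interval -0.15 to 0.17, limma adjusted p = 0.94). Osteosarcoma lines differed from pre-osteoblasts by -0.05 (95% interval -0.22 to 0.11, limma adjusted p = 0.678) and from osteoblasts by -0.06 (95% interval -0.23 to 0.10, limma adjusted p = 0.584). No neighbours in the order of its means differed beyond their spread. For 1015 olfactory receptor genes, which are little used outside the nose, mean levels ran from 3.97 at the 5th to 6.83 at the 95th percentile, and every Trp73 value lay just above the top of that band. Probe sets differ in how strongly they bind, so this places the signal near the dim end of the scale without measuring its amount, and a change of Trp73 near background would be compressed.

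Mdm2 differed far more among the tumour lines than between the groups. Its log2 level was 12.14 in line 493H, 10.22 in line 494H and 9.92 in line 716H. The 6 Kusa4b10 arrays lay between these, with pre-osteoblasts at 11.01, 11.20 and 11.09 and osteoblasts at 10.97, 10.92 and 10.98. Line 493H was above every Kusa4b10 array and the other lines were below all of them. The log2 difference from the pre-osteoblast mean was 1.04 in 493H, -0.88 in 494H and -1.18 in 716H. The range over the lines, 2.22, was at the 99.1 percentile among all genes. Ranked by a line's level minus the mean of the other lines, Mdm2 was number 48 from the top of 19938 genes in 493H (2.07), number 85 from the bottom in 716H (-1.26) and number 501 from the bottom in 494H (-0.81). With 1 array per line, these differences between lines have no test.

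The group means of Mdm2 hid that split. They were 11.10 ± 0.10 in pre-osteoblasts, 10.96 ± 0.03 in osteoblasts and 10.76 ± 1.20 in osteosarcoma lines (SD, n = 3 each). None of the comparisons was called. The osteosarcoma lines differed from pre-osteoblasts by -0.34 (95% interval -1.46 to 0.78, limma adjusted p = 0.693) and from osteoblasts by -0.19 (95% interval -1.32 to 0.93, limma adjusted p = 0.822). Those intervals take in both a clear fall and a clear rise. Left out in turn, the lines gave different answers. Without 493H, Mdm2 was lower in the remaining lines than in pre-osteoblasts by a log2 difference of -1.03 (limma adjusted p = 0.000864) and than in osteoblasts by -0.88 (limma adjusted p = 0.00131). Without 716H the differences were 0.08 (limma adjusted p = 0.933) and 0.23 (limma adjusted p = 0.766), and without 494H they were -0.07 (limma adjusted p = 0.948) and 0.08 (limma adjusted p = 0.943). The difference therefore depends on which lines stand for osteosarcoma. Between osteoblasts and pre-osteoblasts the arrays did not overlap, with osteoblasts lower (-0.15 ± 0.49, SE, limma adjusted p = 0.877). The SE there holds the spread between lines. A fit of the Kusa4b10 groups alone gave the same difference with an adjusted p of 0.139 by limma, and a fit of all groups without 493H gave 0.306. No neighbouring groups in the order osteosarcoma, osteoblast, pre-osteoblast differed beyond their spread.

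The genes beside Mdm2 on its chromosome were looked at after its split among the lines had been seen. Of the 10 nearest measured genes on each side in RefSeq's GRCm38.p6 order, 0 of 20 stood above 1 log2 in 493H over the mean of the other lines, where 1.25% of all genes did, and their median was -0.05. Slc35e3, the next gene on one side and a member of the nucleotide-sugar transporter family, came closest at 0.99. Its levels were 10.71 in 493H, 9.89 in 494H and 9.56 in 716H, against 9.61 to 9.99 in the Kusa4b10 arrays, so 493H was again the only line above all of them. Cpm, which encodes carboxypeptidase M and is next on the other side, read 5.45, 5.29 and 5.26 in these lines, with 5.22 to 5.43 in the Kusa4b10 arrays. Beyond Slc35e3, Nup107, a nuclear pore gene, differed by -0.10, and Rap1b, a small GTPase gene, by 0.12. On the side of Cpm, Cpsf6 differed by -0.18 and Yeats4 by -0.08. After Slc35e3, the next largest difference of 493H among these genes was 0.37, that of the lysozyme gene Lyz2. Only RNA was measured, with 1 array per line.

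**Figure D2:**
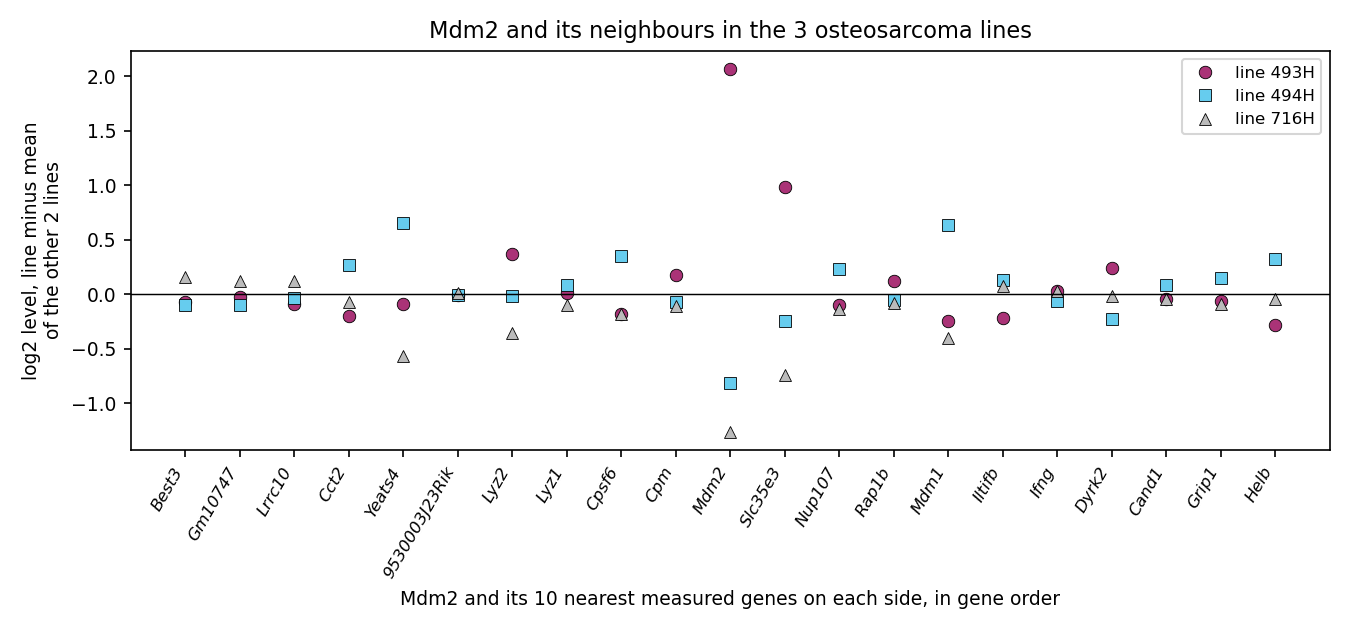
Log2 level of Mdm2 and of the 10 nearest measured genes on each side, in gene order, as each osteosarcoma line's level minus the mean of the other 2 lines, with 1 array per line. Mdm2 stands at 2.07 in 493H and -1.26 in 716H, Slc35e3 at 0.99 and -0.74, and in both of these lines the other genes lie nearer to 0. In 494H, Mdm2 stands at -0.81, Yeats4 at 0.65, Mdm1 at 0.64 and Slc35e3 at -0.25.

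Mdm4 was lowest in the tumour lines and highest in osteoblasts. Pre-osteoblast arrays read 10.22, 10.08 and 10.09 and osteoblast arrays 10.43, 10.28 and 10.50 on the log2 scale. Lines 493H, 494H and 716H read 9.41, 9.62 and 9.86, below every Kusa4b10 array. The means were 10.13 ± 0.08, 10.40 ± 0.11 and 9.63 ± 0.22 (SD, n = 3 each). Mdm4 was 1.71-fold lower in osteosarcoma lines than in osteoblasts (log2 difference -0.77, 95% interval -1.03 to -0.51, limma adjusted p = 0.00161). It was 1.41-fold lower than in pre-osteoblasts (log2 difference -0.50, 95% interval -0.76 to -0.24, limma adjusted p = 0.0149), and without pre-osteoblast replicate 1 that difference was -0.45 with an adjusted p of 0.0556 by limma. The osteoblast arrays lay above all pre-osteoblast arrays by 0.27 (95% interval 0.01 to 0.53), which was not called (limma adjusted p = 0.123). In the order osteosarcoma, pre-osteoblast, osteoblast, the lower pair therefore differed beyond its spread and the upper pair did not in this fit. The range over 9 arrays, 1.08, was at the 80.1 percentile among all genes.

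Within the lines, Mdm4 and Mdm2 ran in opposite order. Line 493H had the highest Mdm2 and the lowest Mdm4, and line 716H the lowest Mdm2 and the highest Mdm4. The spread of Mdm4 among the lines was the smaller, with a range of 0.44 against 2.22. Trp63 was highest in 716H, by 0.35 over the mean of the other lines, and Trp73 differed among the lines by 0.12 in all. With 3 lines these orders are a description.

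**Figure D3:**
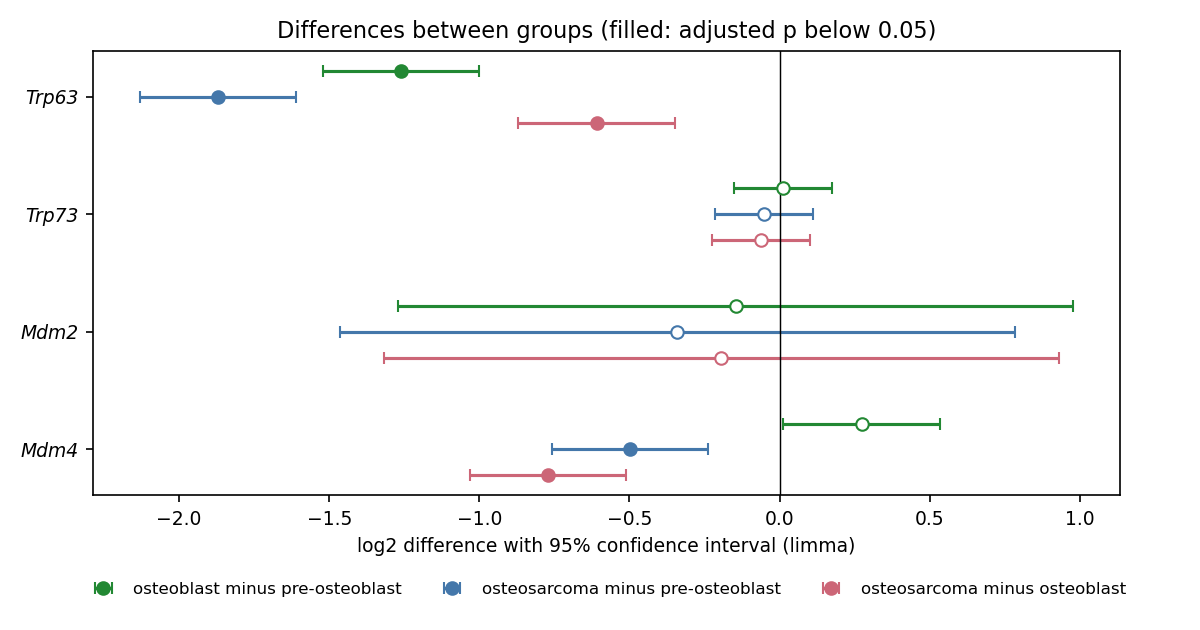
Log2 differences between groups with 95% confidence intervals from limma for the 4 genes and 3 comparisons, filled where the adjusted p was below 0.05. The 3 Trp63 intervals and the Mdm4 intervals for osteosarcoma lines lie wholly below 0, the Trp73 intervals are narrow about 0, and the Mdm2 intervals reach from -1.46 to 0.98.

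Regulators of the MDM proteins and of p53 family stability were read as a list. Of 38 measured, 13 were higher and 6 lower in osteosarcoma lines than in pre-osteoblasts, where 9.96% of all genes were higher and 13.5% lower, with a median log2 difference of 0.18 where the median of all genes was -0.02. The largest rise was that of Cdkn2a, which encodes the MDM2 inhibitor ARF as well as the CDK inhibitor p16. Its log2 level was 11.79, 11.46 and 12.28 in lines 493H, 494H and 716H and at most 7.55 in any Kusa4b10 array. It was 20.8-fold higher than in pre-osteoblasts (log2 difference 4.38 ± 0.18, SE, limma adjusted p = 6.85e-06). A probe set does not tell the ARF transcript from that of p16. Usp2, which encodes a deubiquitinase of MDM2, rose 2.03-fold (1.02 ± 0.11, limma adjusted p = 0.000545), and Rasa1, a RAS GTPase-activating protein, also rose (0.64 ± 0.09, limma adjusted p = 0.00156). The genes that fell most were Daxx (-0.91 ± 0.17, limma adjusted p = 0.00648), which encodes a chromatin adaptor that binds MDM2, Ccng1 (-0.62 ± 0.07, limma adjusted p = 0.000644) and Trim28 (-0.53 ± 0.06, limma adjusted p = 0.000624), a corepressor that works with MDM2. Nqo1, a quinone reductase, did not pass (0.58 ± 0.31, limma adjusted p = 0.234). Without pre-osteoblast replicate 1 the counts were 8 higher and 3 lower, and 8 were higher without replicate 3.

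In osteosarcoma lines against osteoblasts, 13 of these regulators were higher and 7 lower (median 0.13, all genes -0.02), where 14.7% of all genes were higher and 12.7% lower. With arrays centred on their medians the counts were 17 and 4, while the counts over all genes moved from 2936 higher and 2523 lower to 3682 and 2028. Without osteoblast replicate 1, 2 or 3, 8, 7 and 7 were higher. Cdkn2a (4.45 ± 0.18, limma adjusted p = 5.00e-06), Ube4b (0.72 ± 0.09, limma adjusted p = 0.000727), a ubiquitin chain elongation factor, and Mtbp (0.67 ± 0.11, limma adjusted p = 0.00234), the MDM2-binding protein, rose most. Gnl3, the nucleolar protein nucleostemin that binds MDM2, fell by 0.61 ± 0.12 (limma adjusted p = 0.00641). Itch, the ubiquitin ligase that acts on p63 and p73, fell by 0.48 ± 0.08 against osteoblasts (limma adjusted p = 0.00339) and by 0.32 ± 0.08 against pre-osteoblasts (limma adjusted p = 0.0231). Rpl23, a ribosomal protein that can bind MDM2, fell by 0.40 ± 0.05 (limma adjusted p = 0.000634). Nqo1 again did not pass (0.44 ± 0.31, limma adjusted p = 0.358).

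Between osteoblasts and pre-osteoblasts 7 regulators were higher and 7 lower (median 0.04, all genes -0.00), where 10.3% of all genes were higher and 15.8% lower. Quantile normalization gave 10 and 5. Gnl3 (0.87 ± 0.12, limma adjusted p = 0.00133), Cop1 (0.52 ± 0.09, limma adjusted p = 0.0029), a ubiquitin ligase for p53, and Wwp1 (0.49 ± 0.07, limma adjusted p = 0.00174), another ubiquitin ligase, rose. Daxx (-0.86 ± 0.17, limma adjusted p = 0.00732), Trim28 (-0.65 ± 0.06, limma adjusted p = 0.000216) and the SUMO ligase gene Pias1 (-0.43 ± 0.09, limma adjusted p = 0.00863) fell. Without osteoblast replicate 1, 4 were higher and 3 lower, and 4 were lower when osteoblast replicate 3 or either of pre-osteoblast replicates 2 and 3 was left out.

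Usp7, the deubiquitinase that acts on MDM2 and p53, lay between 11.03 and 11.43 on all arrays and none of its differences, -0.01, 0.10 and 0.11 for osteoblasts against pre-osteoblasts and osteosarcoma lines against each, passed (limma adjusted p = 0.946, 0.539 and 0.459). Ppm1d, the phosphatase WIP1, had differences of -0.38 and -0.34 in osteosarcoma lines against pre-osteoblasts and osteoblasts, which did not pass (limma adjusted p = 0.0518 and 0.0689). Mtbp was higher in the lines than in pre-osteoblasts (0.35 ± 0.11, limma adjusted p = 0.0453) and did not pass between the Kusa4b10 states (-0.31 ± 0.11, limma adjusted p = 0.0642). Ppp1r13l, which encodes the inhibitory ASPP protein of the family, fell in osteoblasts (-0.42 ± 0.08, limma adjusted p = 0.00706) and in osteosarcoma lines (-0.36 ± 0.08, limma adjusted p = 0.0163) against pre-osteoblasts. Between osteoblasts and osteosarcoma lines it differed by 0.06 (limma adjusted p = 0.664).

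Of 38 measured kinases, cofactors and binding partners of the family, 3 were higher and 14 lower in osteoblasts than in pre-osteoblasts (median -0.13). Of all genes, 10.3% were higher and 15.8% lower. Quantile normalization gave 6 and 12 for the list. Rb1 (1.40 ± 0.13, limma adjusted p = 0.000226), the p300 partner gene Jmy (0.83 ± 0.15, limma adjusted p = 0.00394) and the deacetylase gene Sirt1 (0.80 ± 0.11, limma adjusted p = 0.00115) rose. Chek1 (-1.57 ± 0.29, limma adjusted p = 0.00493), a checkpoint kinase, Pml (-1.34 ± 0.09, limma adjusted p = 5.84e-05), the nuclear body scaffold, and Bard1 (-1.27 ± 0.25, limma adjusted p = 0.00655), the partner of BRCA1, fell. Trp53inp1, a stress-induced nuclear protein, did not pass here (0.50 ± 0.29, limma adjusted p = 0.266).

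Against pre-osteoblasts, 5 of these genes were higher and 10 lower in osteosarcoma lines (median 0.01), where 9.96% of all genes were higher and 13.5% lower. With centred arrays the list had 8 and 9. Ndn, which encodes necdin, a p53-binding protein, was 10.57, 9.04 and 8.07 in lines 493H, 494H and 716H and at most 5.73 in the Kusa4b10 arrays. It rose by 3.59 ± 0.51 (limma adjusted p = 0.00183). The lysine methyltransferase gene Setd7 (0.77 ± 0.10, limma adjusted p = 0.0014) and the damage mediator gene Mdc1 (0.77 ± 0.09, limma adjusted p = 0.000875) rose, and Trp53inp1 (-1.71 ± 0.29, limma adjusted p = 0.00369), Pml (-0.85 ± 0.09, limma adjusted p = 0.000552) and the kinase gene Hipk2 (-0.74 ± 0.08, limma adjusted p = 0.000514) fell. Chek1 did not pass (0.89 ± 0.29, limma adjusted p = 0.0592).

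Against osteoblasts, 12 of these genes were higher and 6 lower in osteosarcoma lines (median 0.09), where 14.7% of all genes were higher and 12.7% lower. With centred arrays the list had 15 and 3, and 3 were lower without osteoblast replicate 1. Ndn (3.60 ± 0.51, limma adjusted p = 0.0014), Chek1 (2.46 ± 0.29, limma adjusted p = 0.000581) and Brca1 (1.66 ± 0.24, limma adjusted p = 0.00143) rose most. Trp53inp1 (-2.21 ± 0.29, limma adjusted p = 0.000885), Rb1 (-1.05 ± 0.13, limma adjusted p = 0.000767) and Sirt1 (-1.02 ± 0.11, limma adjusted p = 0.000374) fell most. Trp53bp1, a damage response gene, did not pass (0.35 ± 0.12, limma adjusted p = 0.0611).

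Among target genes shared by the p53 family, more were lower than higher in the tumour lines. Of 36 measured, 16 were lower and 2 higher in osteosarcoma lines than in pre-osteoblasts, where 13.5% of all genes were lower and 9.96% higher. The median log2 difference was -0.24 against -0.02 for all genes. Eda2r, a receptor of the tumour necrosis factor receptor family, read 7.80, 6.86 and 6.58 in lines 493H, 494H and 716H and 9.59 to 9.81 in pre-osteoblasts. It was 6.19-fold lower (-2.63 ± 0.27, limma adjusted p = 0.000386). Ephx1, an epoxide hydrolase gene, read 10.61, 10.03 and 9.94 in the lines and 12.05 to 12.68 in the Kusa4b10 arrays, a 5.56-fold fall against pre-osteoblasts (-2.47 ± 0.16, limma adjusted p = 6.32e-05). Pltp, which encodes phospholipid transfer protein, fell by 1.88 ± 0.23 (limma adjusted p = 0.000819). The genes that rose were Igfbp3, an IGF-binding protein gene (2.48 ± 0.14, limma adjusted p = 3.63e-05), and Plk2, a polo-like kinase gene (1.11 ± 0.12, limma adjusted p = 0.000595). Gadd45a did not pass (0.97 ± 0.33, limma adjusted p = 0.0723).

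Against osteoblasts, 15 of the target genes were lower and 5 higher in osteosarcoma lines (median -0.32, all genes -0.02), where 12.7% of all genes were lower and 14.7% higher. Gadd45a, a growth arrest gene, fell most (-2.86 ± 0.33, limma adjusted p = 0.000545), followed by Pltp (-2.27 ± 0.23, limma adjusted p = 0.000294) and Trp53inp1. Igfbp3 (2.43 ± 0.14, limma adjusted p = 3.26e-05), the matrix gene Thbs1 (0.47 ± 0.14, limma adjusted p = 0.0416) and Plk2 (0.45 ± 0.12, limma adjusted p = 0.0285) rose. The count of higher genes was 3 without line 493H, without osteoblast replicate 2 or 3 or without any 1 pre-osteoblast array, and 2 without osteoblast replicate 1. Fas, a death receptor gene, did not pass (-0.49 ± 0.41, limma adjusted p = 0.44). Ccng1, a cyclin that binds MDM2 and stands on both lists, was lower in osteosarcoma lines than in pre-osteoblasts and also lower than in osteoblasts (-0.33 ± 0.07, limma adjusted p = 0.00994), and it fell in osteoblasts as well (-0.29 ± 0.07, limma adjusted p = 0.0169).

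The target genes, from which Mdm2 is left out, had similar counts in the 3 lines. In line 493H 17 of the 36 lay below all 6 Kusa4b10 arrays, in 494H 16 and in 716H 18, where 28.4%, 23.5% and 21.6% of all genes did. Those above all 6 arrays numbered 2, 3 and 4, against 16.8%, 22.3% and 21.2% of all genes. The median difference from the pre-osteoblast mean was -0.35, -0.28 and -0.31 in these lines, and that from the osteoblast mean -0.23, -0.25 and -0.25.

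**Figure D4:**
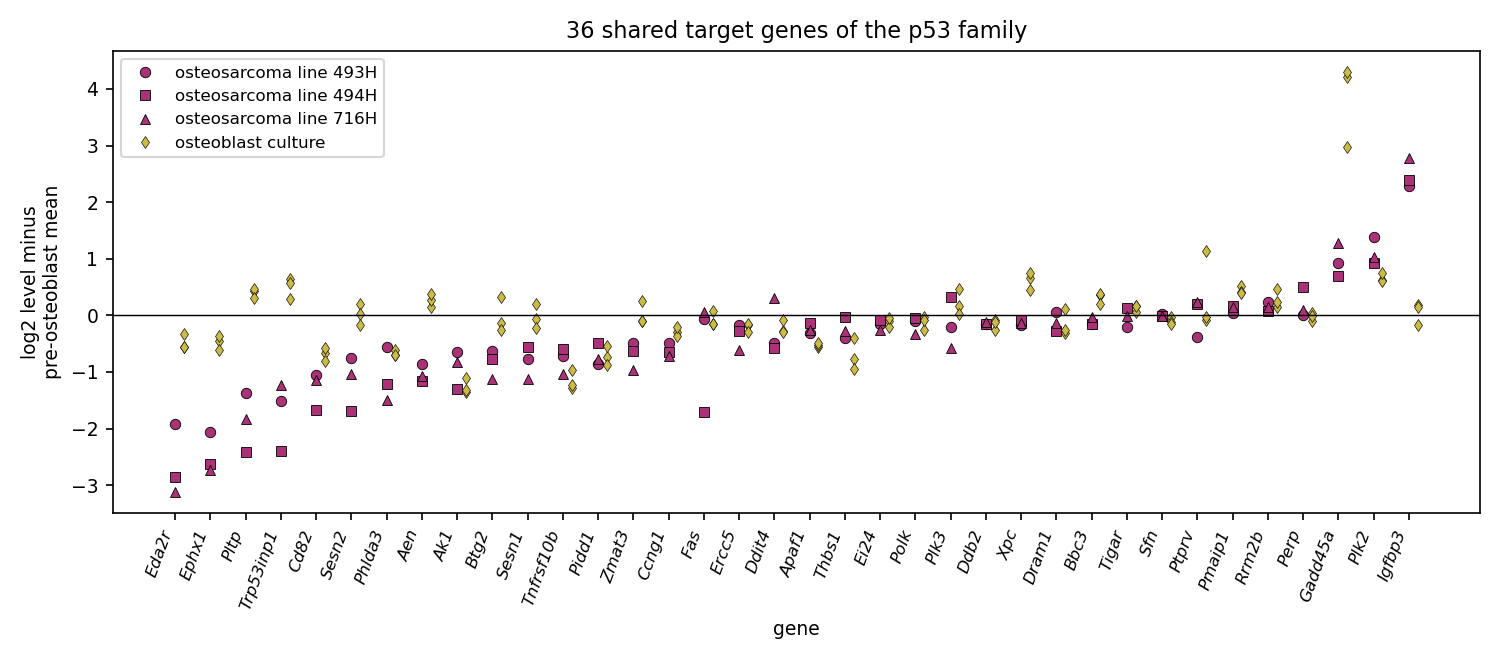
Log2 level minus the pre-osteoblast mean for 36 shared target genes of the p53 family, for each osteosarcoma line and each osteoblast culture, ordered by the mean of the lines. All 3 lines lie well below 0 for Eda2r, Ephx1 and Pltp and above 0 for Plk2 and Igfbp3, while the osteoblast cultures are highest for Gadd45a.

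Between osteoblasts and pre-osteoblasts, 5 target genes were higher and 8 lower (median -0.06), where 10.3% of all genes were higher and 15.8% lower. Gadd45a rose most, with levels of 12.01, 10.78 and 12.11 in osteoblasts against 7.70 to 8.01 in pre-osteoblasts (3.83 ± 0.33, limma adjusted p = 0.000149). Plk2 (0.66 ± 0.12, limma adjusted p = 0.00531) and the repair gene Xpc (0.62 ± 0.08, limma adjusted p = 0.00124) also rose. Ak1, an adenylate kinase gene (-1.26 ± 0.16, limma adjusted p = 0.000794), the death receptor gene Tnfrsf10b (-1.16 ± 0.12, limma adjusted p = 0.000372) and Pidd1 (-0.72 ± 0.17, limma adjusted p = 0.0162), a death domain gene, fell. When osteoblast replicate 1 was left out 4 genes were lower, and 5 were when osteoblast replicate 3 or either of pre-osteoblast replicates 2 and 3 was.

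The genes that p63 is known to act on in epithelium were read next. Of 37 measured p63 target and stratified epithelium genes, 3 were higher and 3 lower in osteoblasts than in pre-osteoblasts, 0 higher and 2 lower in osteosarcoma lines than in pre-osteoblasts, and 1 higher and 2 lower than in osteoblasts. Of all genes, 10.3%, 9.96% and 14.7% were higher and 15.8%, 13.5% and 12.7% lower in these comparisons, so each count was a smaller share of the list. The list averaged 7.37 to 7.56 over the arrays, below the median of 7.97 over all genes. Some of its genes, such as Dsg3 (5.12 to 5.43) and Krt1 (5.82 to 6.00), lay below 6.83, the 95th percentile of the olfactory receptor genes. Genes near background can hardly be called, so the smaller shares do not show whether p63 targets followed Trp63. The median differences were 0.00, 0.01 and -0.02. These counts are small, and leaving out single arrays moved them to between 0 and 4. Quantile normalization gave 1 higher and 2 lower in osteosarcoma lines against pre-osteoblasts and 3 and 3 against osteoblasts. Cdh3, which encodes P-cadherin, fell by 3.42 ± 0.16 in osteoblasts (limma adjusted p = 1.29e-05) and by 0.97 ± 0.16 in osteosarcoma lines (limma adjusted p = 0.00301) against pre-osteoblasts. It was higher in the lines than in osteoblasts (2.45 ± 0.16, limma adjusted p = 4.57e-05), so its order was not that of Trp63. Dlx3, a homeobox gene of skin and bone, rose in osteoblasts (1.05 ± 0.09, limma adjusted p = 0.000128) and was lower in the lines than in osteoblasts (-1.17 ± 0.09, limma adjusted p = 9.28e-05). Itga3, an integrin chain gene, fell in osteoblasts (-1.17 ± 0.33, limma adjusted p = 0.0302), as did the zinc finger gene Bnc1 (-0.79 ± 0.21, limma adjusted p = 0.0259). Fgfr2, a growth factor receptor gene, did not pass in that comparison (1.14 ± 0.48, limma adjusted p = 0.127).

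Epithelial cell markers were also read, since p63 marks such cells. Over 15 of them the mean log2 level was 6.83 to 6.87 in pre-osteoblasts, 6.73 to 6.80 in osteoblasts and 6.83 to 6.89 in osteosarcoma lines. Of these, 0 were called against pre-osteoblasts in either comparison by limma, and 1, the keratin gene Krt19, was higher in osteosarcoma lines than in osteoblasts (1.06 ± 0.30, limma adjusted p = 0.0318). Of all genes, 26.1% of osteoblast and 23.5% of osteosarcoma differences from pre-osteoblasts were called, and 14.7% were higher in osteosarcoma lines than in osteoblasts. The part of other cell types in the Trp63 values was not tested beyond these marker levels.

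Of 27 measured p73 target and multiciliated cell genes, 0 were higher and 1 lower in osteoblasts than in pre-osteoblasts, 1 higher and 1 lower in osteosarcoma lines than in pre-osteoblasts, and 2 higher and 0 lower than in osteoblasts. Ift88, a ciliary transport gene, was the one that fell, in osteoblasts (-0.40 ± 0.10, limma adjusted p = 0.0223) and in osteosarcoma lines (-0.34 ± 0.10, limma adjusted p = 0.0466). Serpinb1a, a protease inhibitor gene that is no ciliary gene, read 10.47, 8.56 and 10.26 in lines 493H, 494H and 716H. It was higher than in pre-osteoblasts (1.96 ± 0.47, limma adjusted p = 0.019) and than in osteoblasts (2.86 ± 0.47, limma adjusted p = 0.00281). Tekt2, a structural gene of cilia, was the other gene higher than in osteoblasts (0.27 ± 0.07, limma adjusted p = 0.0219). In the order of comparisons above, 10.3%, 9.96% and 14.7% of all genes were higher and 15.8%, 13.5% and 12.7% lower. In the main fit each count was thus a smaller share of the list. The list averaged 6.73 to 6.89 over the arrays, close to 6.83, the 95th percentile of the olfactory receptor genes. Some genes lay well below that, such as Gmnc at 5.45 to 5.66. Genes near background can hardly be called, so the smaller shares do not show what p73 targets did. The counts ranged from 0 to 2 when single arrays were left out, and quantile normalization gave 3 higher and 0 lower in osteosarcoma lines against pre-osteoblasts. The 1 lower in that comparison became 0 when any array but pre-osteoblast replicate 2 was left out. In osteoblasts it became 0 without osteoblast replicate 1 or 3 or without pre-osteoblast replicate 3.

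E2F and RB family genes were read because Trp73 is a known E2F target and the lines carry an Rb deletion. Of 18 measured, 3 were higher and 8 lower in osteoblasts than in pre-osteoblasts (median -0.38), where 10.3% of all genes were higher and 15.8% lower. In osteosarcoma lines against osteoblasts 9 were higher and 4 lower (median 0.47), where 14.7% of all genes were higher and 12.7% lower. E2f8 (-2.30 ± 0.38, limma adjusted p = 0.00286) and E2f7 (-1.72 ± 0.29, limma adjusted p = 0.0032), which both encode repressors, fell most in osteoblasts. Both E2f7 (1.99 ± 0.29, limma adjusted p = 0.00153) and E2f8 (1.68 ± 0.38, limma adjusted p = 0.0114) were higher in the lines than in osteoblasts. E2f1 was 0.87 ± 0.18 higher in the lines than in osteoblasts (limma adjusted p = 0.00781) and did not pass against pre-osteoblasts (0.31 ± 0.18, limma adjusted p = 0.277) or between the Kusa4b10 states (-0.56 ± 0.18, limma adjusted p = 0.053). Lower genes in osteoblasts numbered 5 without osteoblast replicate 2 and 4 without pre-osteoblast replicate 2. The part of these genes in the Trp73 values was not tested.

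Against pre-osteoblasts, 1 E2F or RB family gene was higher in the lines, Tfdp2, an E2F dimer partner (0.79 ± 0.16, limma adjusted p = 0.00985), and 3 were lower (median 0.16). Those were E2f4 (-0.72 ± 0.20, limma adjusted p = 0.0324), Rbl2 (-0.55 ± 0.05, limma adjusted p = 0.000285) and Lin37 (-0.52 ± 0.05, limma adjusted p = 0.000373), all parts of repressor complexes of the pocket proteins. Both counts were near the shares over all genes, 9.96% higher and 13.5% lower. The higher genes of the list numbered 2 without line 493H, 3 without line 716H, 3 with centred arrays and 4 with quantile normalization. The 19 proliferation genes had 17 lower in osteoblasts than in pre-osteoblasts (median -1.98), 18 higher in osteosarcoma lines than in osteoblasts (median 2.25) and 0 called by limma in osteosarcoma lines against pre-osteoblasts (median 0.37, and 3 higher without pre-osteoblast replicate 2). Of all genes, 15.8% were lower in the first of these comparisons, 14.7% higher in the second and 23.5% called in the third. The part of the proliferation genes in the values of Mdm4 and Trp63 was not tested.

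The genes whose pattern over the 9 arrays lay nearest to each of the 4 were listed by the root mean square difference of log2 levels, each gene centred on its own mean. For Trp63 they were Tst, Caps2, Cpa6, Stat5a and Fah, at 0.15 to 0.20, where the median over all genes was 0.79. Tst, a mitochondrial sulfurtransferase gene, averaged 9.79 in pre-osteoblasts, 8.65 in osteoblasts and 7.96 in the lines, and Stat5a, a cytokine signalling factor gene, 10.85, 9.73 and 9.37. For Mdm4 they were Rsad1, Cox7a2l, Pi4k2a, Cyth2 and Mir181a-2, at 0.07 to 0.09 against a median of 0.36. Rsad1 averaged 8.92, 9.26 and 8.56 in pre-osteoblasts, osteoblasts and lines.

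For Mdm2 the nearest were Mmp9, Rab32, Cwc22, Meis2 and Hoxb2, at 0.27 to 0.33 against a median of 0.62. The root mean square deviation of Mdm2 about its own mean was 0.59. Mmp9, a gelatinase gene, read 8.52, 6.96 and 7.09 in lines 493H, 494H and 716H, and Hoxb2, a homeobox gene, 8.84, 7.70 and 7.36, so both were highest in 493H. For Trp73 the nearest were Add2, Krt1, Olfr76, Olfr1384 and Olfr366, at 0.02 to 0.03 against a median of 0.18. Of these 5 genes 3 are olfactory receptors and 1 is an epidermal keratin. Nearness of pattern over 9 arrays in 3 groups is a description of these arrays.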

How the data were processed

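Total RNA, extracted with Trizol and RNeasy columns per the labels' protocols, was measured on 9 expression arrays. RMA was used by the authors, as stated in the submitters' processing notes, to make the deposited log2 values, 1 per probe set and array. The notes also name the mouse build mm9. RMA normalizes between arrays and compresses differences near background, so a gene is read relative to the rest of its array. Its version is not given in the sources used. The number of arrays limits the precision.

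The table held 35556 probe sets, of which 21789 carry 1 gene symbol in the platform annotation, 1621 several and 12146 none. Those with 1 symbol were used. For 999 genes with more than 1 probe set the one with the highest mean was taken, which left 19938 genes. Array medians ran from 7.43 to 7.56, and at most 4.33% of the deposited values were exactly equal, with no tolerance, between any pair of arrays of a group.

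In R 4.3.3, limma 3.58.1 fitted 1 mean per group to the 9 arrays, leaving 6 residual degrees of freedom beside 2.19 from the prior. No gene was filtered out by level. Tests were two-sided, adjusted by Benjamini-Hochberg over all genes, and called below 0.05. The script was tested on simulated data. Promoters and gene order came from RefSeq tables of GRCm38.p6.

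The members and gene lists were chosen with earlier results of these data known, and the neighbours of Mdm2 were looked up after its values were seen. Named genes are the 4 members, their direct partners (Cdkn2a, Usp7, Ppm1d, Ccng1, Mtbp, Rb1, E2f1, Ppp1r13l, Itch), per list and comparison up to 3 called genes a direction by size and the largest one not called, the 5 nearest patterns per member, and called markers. Where space allowed fewer, the first by size are given. Stromal, haematopoietic, endothelial, muscle, chondrocyte and osteoclast markers were also read. Alternatives were filters on dim genes, the mean of probe sets, all probe sets, quantile normalization, centring on array medians, only the compared groups, 1 array weight per group, a trended or robust prior, a replicate block, and leaving out each array.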

Additional observations from a re-analysis of the deposited data

How the results depend on the processing

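Over the 20 alternatives for osteoblasts against pre-osteoblasts and 19 for the other comparisons (1 fewer for Trp73, which lies below the median level), 392 values for the members and for all-gene counts kept direction and side of the threshold or, for counts, stayed close to the main count, and 20 did not. Each Trp63 call and the Mdm4 call against osteoblasts held under every alternative, with adjusted p values by limma of at most 0.0016, 0.00157 and 0.021 for Trp63 and 0.0097 for Mdm4. Trp73 between the Kusa4b10 states changed sign with quantile normalization (-0.0016) and centring (-0.0039), and over single arrays left out ranged from -0.049 to 0.056. Centring also turned its difference of osteosarcoma lines from osteoblasts (0.0037). With single arrays left out, Mdm2 ranged from -1.03 to 0.080 for osteosarcoma lines against pre-osteoblasts and from -0.88 to 0.23 against osteoblasts, its F test from an adjusted p of 0.000827 to 0.969 by limma, and Mdm4 in osteosarcoma lines against pre-osteoblasts from -0.61 to -0.39. The Mdm4 difference between the Kusa4b10 states, 0.27, was called with only those groups fitted, without a block (limma adjusted p = 0.0364) and with the replicate number as a block (limma adjusted p = 0.046). It was also called in the fit of all groups with 1 array weight per group (limma adjusted p = 0.0487). The causes were not tested.

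The replicate numbers were not taken to pair the cultures, since deviations of same-numbered cultures correlated at 0.15, 0.18 and 0.03. The block, fitted to the Kusa4b10 cultures alone, gave 2309 genes higher and 3574 lower between the Kusa4b10 states. The same cultures alone without the block gave 2523 and 3793, and the main fit of all 9 arrays gave 2049 and 3153. Testing all 35556 probe sets in place of 19938 genes called 3548 higher between the Kusa4b10 states. It called 4628 and 4753 lower in osteosarcoma lines against pre-osteoblasts and osteoblasts. Those counts come from a larger set of features, so they do not compare directly with the main counts. Genes higher in osteosarcoma lines than in pre-osteoblasts numbered 1225 without pre-osteoblast replicate 3 and up to 2117 without other arrays. Scalings shifted the median of all genes by less than 0.1. Signal near background limits what Trp73 can show.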

Other observations

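Markers of other cell types were read in the same fit, and their counts are to be set beside the shares over all genes. Those were 10.3% higher and 15.8% lower in osteoblasts than in pre-osteoblasts. In osteosarcoma lines they were 9.96% and 13.5% against pre-osteoblasts, and 14.7% and 12.7% against osteoblasts. Of 12 haematopoietic and macrophage markers, 1 was lower in osteoblasts than in pre-osteoblasts, 0 were called by limma in osteosarcoma lines against pre-osteoblasts, and 1 was higher and 1 lower against osteoblasts. In the same order of comparisons, 1, 1 and 0 of 10 endothelial markers were lower and none was higher. Muscle markers, also 10, had 1 lower in osteoblasts, 0 called by limma against pre-osteoblasts and 1 higher against osteoblasts in the lines. Of 11 chondrocyte markers, 1 was higher in osteoblasts, 1 was higher and 2 were lower in the lines than in pre-osteoblasts, and 3 were lower than in osteoblasts, led by the hypertrophic collagen gene Col10a1 (-3.40 ± 0.53, SE, limma adjusted p = 0.00213). Of 9 osteoclast markers, 4 were higher and 1 lower in osteoblasts, 2 higher and 1 lower in the lines than in pre-osteoblasts, and 1 higher and 3 lower than in osteoblasts. Stromal and fibroblast markers, 12 in number, had 4 higher and 2 lower in osteoblasts, 4 higher and 1 lower in the lines than in pre-osteoblasts, and 4 and 4 against osteoblasts. Thy1, a stromal surface marker, was higher in the lines than in pre-osteoblasts (4.82 ± 0.30, limma adjusted p = 5.28e-05), and Lum, a matrix proteoglycan gene, rose in osteoblasts (5.32 ± 0.49, limma adjusted p = 0.00021).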
